A study of Mus musculus with 19 samples.

Results

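Replication-dependent core histone genes were taken as every row of the deposited table whose gene symbol begins with Hist1 to Hist4 followed by h2, h3 or h4, which leaves the linker H1 genes out. The rule found 59 of the 25891 rows. They comprised 19 H2A, 17 H2B, 12 H3 and 11 H4 genes. By symbol, 46 belonged to the Hist1 cluster on chromosome 13, 9 to Hist2 on chromosome 3, 3 to Hist3 on chromosome 11 and 1 to Hist4 on chromosome 6. In the GENCODE vM21 annotation of GRCm38, 56 of them are protein coding and 3 are pseudogenes (Hist1h2al among them). Another 5 symbols of that annotation fit the rule and were not analysed here.

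RNA of mouse MII oocytes and 2cell embryos was sequenced in 19 libraries. By their labels 5 libraries were of CPEB3+/- MII oocytes, 5 of CPEB3-/- MII oocytes, 5 of CPEB3+/- 2cell embryos and 4 of CPEB3-/- 2cell embryos. CPEB3 is an RNA-binding protein of the cytoplasmic polyadenylation element-binding family. The knockout (KO in the labels, CPEB3-/- here) removed a LoxP-flanked Cpeb3 in the oocyte with Cre under the ZP3 promoter, which is active in growing oocytes. The controls (Het in the labels, CPEB3+/- here) kept 1 functional allele. All donors were BL6 females of 6 to 10 weeks, primed with 5 IU of pregnant mare serum gonadotropin and given 5 IU of human chorionic gonadotropin (hCG). MII oocytes came from these females. Others were mated, with wild-type males where the study describes the cross, their zygotes cultured in M16 medium, and 2cell embryos picked at 37 h from the hCG injection. For embryos CPEB3+/- and CPEB3-/- thus name the oocyte they came from, not the embryo's own genome. A library held RNA pooled from 5 cells according to the methods, and nothing ties a library to 1 female, so p-values cover the spread between libraries only.

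In the quantified table the targeted gene did not follow the genotype labels. Cpeb3 was listed at 0.045 to 0.101 FPKM (fragments mapped to a gene, scaled by its exon length and by the library's depth) in the CPEB3+/- MII libraries and at 0.131 to 0.215 FPKM in the CPEB3-/- ones. In 2cell embryos it was at 0.0204 to 0.0566 against 0.0362 to 0.0633 FPKM. Whole-gene values need not fall when only part of a gene is removed, and the deleted part is not given in the sources used here. Genotypes below are therefore those of the labels. Of 10 oocyte markers 9 were lower by limma in 2cell embryos than in MII oocytes in each genotype (adjusted p under 0.05 and over 1.5-fold). Zp2 did not meet that rule (2.05 and 1.81 FPKM in CPEB3+/-, limma adjusted p = 0.0552). Gdf9, an oocyte growth factor, was at 306 and 274 FPKM on average in MII libraries and 15.3 and 23.3 FPKM in 2cell libraries (CPEB3+/- and CPEB3-/-). The 11 cumulus and granulosa genes in the table summed to at most 1.38 FPKM in any library, and 2 of them in each CPEB3-/- group and 1 in each CPEB3+/- group were at 0 throughout. The 2 blood genes in the table (Hba-a1 and Hba-a2, alpha globin) summed to at most 0.428 FPKM in MII oocytes and to 46.2 to 146 FPKM in 2cell embryos.

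Core histones H2A, H2B, H3 and H4 form the octamer around which DNA is wrapped. Their replication-dependent genes stand in clusters, mostly lack introns, and are transcribed in bulk when DNA is copied. Most of their mRNAs end in a conserved stem-loop instead of a poly(A) tail, and the stem-loop binding protein SLBP, which attaches there, is needed for their processing and translation. Oocytes are an exception in that they store histone mRNA and SLBP for the first embryonic cell cycles, at a time without transcription. The library kit primes on poly(A), so the levels below are those of transcripts that could be copied from a poly(A) stretch. A longer tail and more RNA therefore cannot be told apart in these values, nor can fewer cells and less RNA per cell.

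The stem-loop is shown here because it is the element that sets these mRNAs apart. It was found in an annotated transcript of 39 of the 59 genes. Some of the others have transcripts annotated to end at or soon after the coding sequence, as Hist1h2ai (393 of 393 bases coding) and Hist1h2ah (387 of 405). There little or no 3′ UTR could be searched. Within the last 100 bases of the longest transcript the stem-loop was present in 20 of 56 coding members, against 17 of 21818 other coding genes (0.0779%). The sequences below are those of members to which the results turn, with Hist1h4b added for its different stem. They were read from the GENCODE vM21 transcripts on GRCm38, 5′ to 3′ on the gene's strand with the hairpin in capitals.
Hist1h2ap (chr13:21833026-21833049, minus strand): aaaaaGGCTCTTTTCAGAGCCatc
Hist1h2ad (chr13:23574890-23574915, plus strand): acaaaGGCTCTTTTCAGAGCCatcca
Hist2h2aa1 (chr3:96246027-96246052, plus strand): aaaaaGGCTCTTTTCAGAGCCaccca
Hist1h2bk (chr13:22036295-22036320, plus strand): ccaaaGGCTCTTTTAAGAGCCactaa
Hist2h3c2 (chr3:96238480-96238505, minus strand): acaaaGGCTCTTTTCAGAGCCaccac
Hist1h4d (chr13:23581945-23581970, plus strand): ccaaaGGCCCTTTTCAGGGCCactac
Hist1h4b (chr13:23757361-23757386, plus strand): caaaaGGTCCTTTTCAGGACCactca
The H2A, H2B and H3 hairpins shown share 1 stem, whereas the H4 hairpins carry other stems (compare Hist1h4d and Hist1h4b). All lie in the 3′ UTR. In Hist1h2ap the annotated transcript ends 3 bases after the hairpin, and in Hist1h4d it runs on for 770 bases.

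Promoters were shown for the pair that held the most abundant member. H2A and H2B genes often lie head to head, and 12 such pairs were found among the members. In GENCODE vM21 the start of Hist1h2ap lies 236 bases from that of Hist1h2br. Below are the 110 bases before each RefSeq transcription start (GRCm38.p6), with CCAAT and its complement ATTGG in capitals.
Hist1h2ap (chr13:21833476-21833585, minus strand): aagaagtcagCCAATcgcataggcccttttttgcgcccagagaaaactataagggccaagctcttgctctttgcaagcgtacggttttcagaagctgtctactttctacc
Hist1h2br (chr13:21833633-21833742, plus strand): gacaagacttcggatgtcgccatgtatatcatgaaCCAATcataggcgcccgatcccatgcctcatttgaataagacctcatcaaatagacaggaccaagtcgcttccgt
Counted on both strands in the 250 bases before each RefSeq start, CCAAT was present in 17 of 17 H2A, 15 of 15 H2B, 8 of 10 H3 and 3 of 10 H4 promoters that could be matched, against 33.8% of 32851 promoters. TATAAA was present in 40.4% of member promoters and 12.4% of all. The octamer ATTTGCAT was present in 7 H2A and 7 H2B promoters and in none of the 20 H3 and H4 ones, against 1.6% of all.

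These genes resemble each other, which bears on every value below. The share of a gene's 150-base words that another annotated gene also holds was over 50% for 21 of the 59 members and 0 for 10 of them. It was 91.0% for Hist1h2ap (mostly shared with Hist1h2ao), 59.3% for Hist1h2ad and 84.8% for Hist1h2ah (which share with each other), 87.0% for Hist2h2aa1, and 0% for Hist1h4d and Hist1h2aa. How reads that fit several genes were assigned is not given in the sources used here. Of 1121 member values, 262 were listed at 0 and 50 lay above 0 but under 0.5 of what 1 fragment is worth, as Hist1h2ah in CPEB3+/- MII library A.

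In CPEB3+/- MII oocytes the most abundant core histone mRNAs were Hist2h2aa1, Hist1h2aa and Hist1h2ap, the only members with a mean above 10 FPKM. Their means ± SD over 5 libraries were 35.4 ± 11.0, 17.4 ± 3.61 and 16.7 ± 4.19 FPKM. Hist1h2aa and its neighbour Hist1h2ba encode TH2A and TH2B, variants known from testis and oocytes. In all, 17 members exceeded 1 FPKM on average. In CPEB3+/- 2cell embryos 25 did, and Hist1h2ap alone reached 1026 ± 217 FPKM, the 18th highest mean of any gene. It supplied 87.1% of the summed H2A FPKM there. Among H2B genes Hist1h2bk led in CPEB3+/- MII oocytes (9.56 ± 2.31 FPKM), among H3 genes Hist1h3f (2.91 ± 0.76 FPKM) and among H4 genes Hist1h4c (6.93 ± 1.44 FPKM). In CPEB3-/- MII oocytes the H3 genes Hist2h3c2 and Hist1h3f were level (4.37 and 4.33 FPKM).

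**Figure D1:**
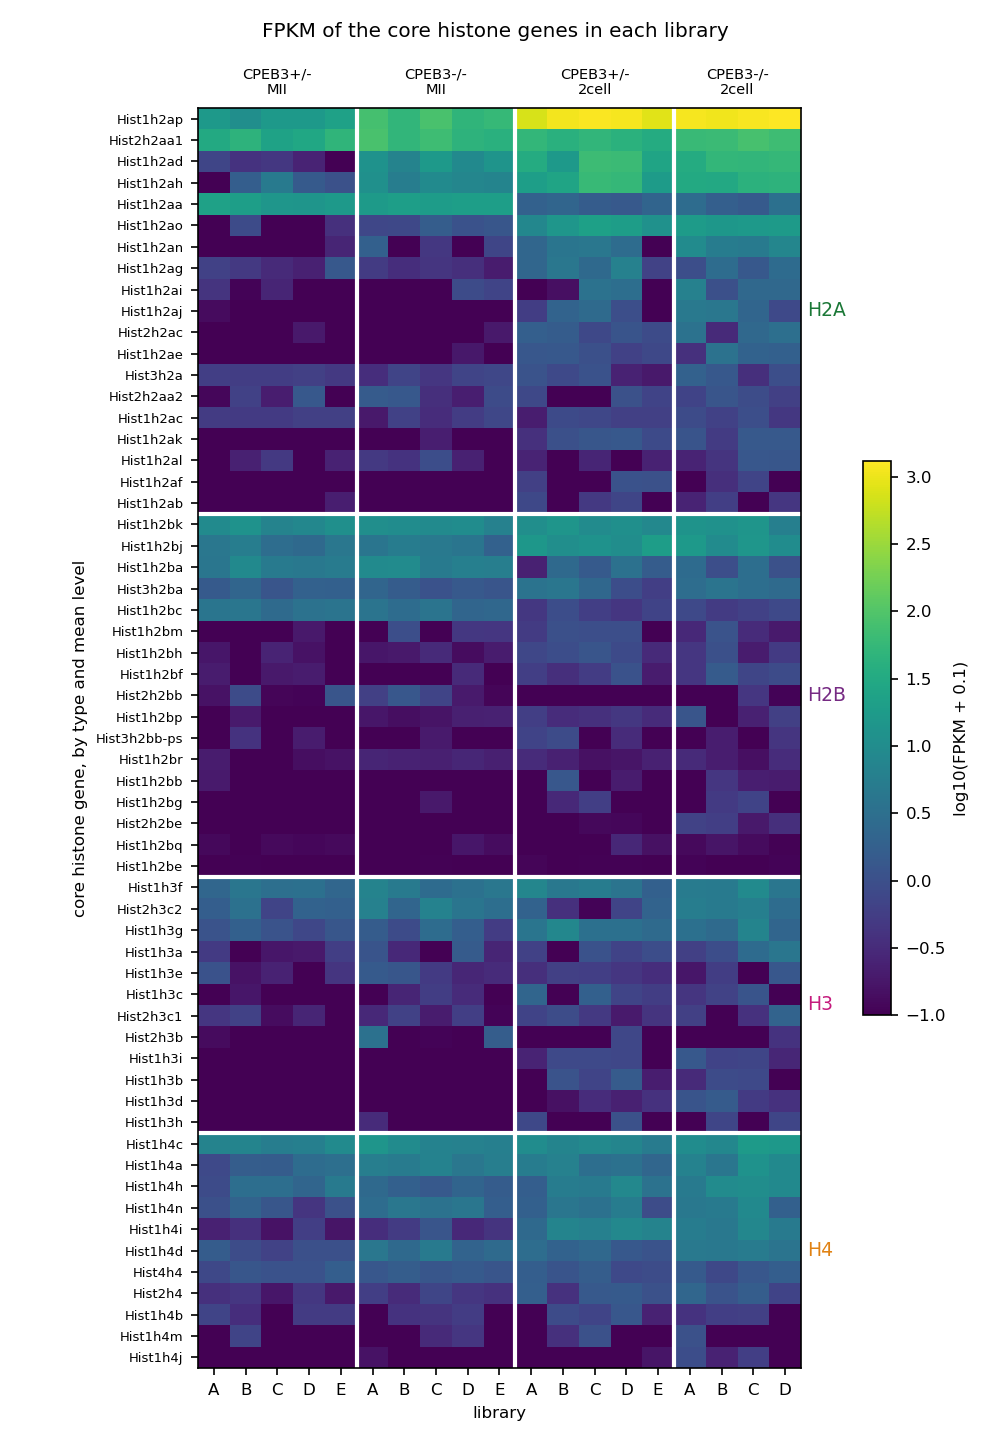
FPKM of the 59 core histone genes (rows, by type and by mean level) in the 19 libraries (columns, by group), as log10(FPKM + 0.1) from dark (0 FPKM) to yellow. Hist1h2ap is the brightest row in 2cell embryos (1026 FPKM on average in CPEB3+/-), whereas Hist1h2aa is bright only in MII oocytes.

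The first comparison asked which core histone mRNAs differed between CPEB3-/- and CPEB3+/- MII oocytes. Of 33 members tested, 8 were higher in CPEB3-/- and none was lower: 4 H2A genes (Hist1h2ad, Hist1h2ah, Hist1h2ao, Hist1h2ap), the H2B gene Hist1h2br and 3 H4 genes (Hist1h4a, Hist1h4d, Hist1h4n). All 8 were among the 24 Hist1 members tested, and 0 of 6 Hist2 members were called, although the median log2 fold change was 0.58 for Hist1 and 0.59 for Hist2, and whether the clusters differed was not tested. With libraries scaled to their summed FPKM or with a filter at 1 FPKM, 2 of the Hist2 members (Hist2h2aa1 and Hist2h3c2) were called too. A gene was called when limma gave an adjusted p under 0.05, over all genes tested in the stage, and a change above 1.5-fold. By that rule 5.61% of the 10515 genes tested were higher and 7.28% lower, against 24.2% and 0% of the members. The filter asked for 0.1 FPKM in 5 libraries, which Hist1h2ao reached in 2 and Hist1h2br in 1 of the CPEB3+/- libraries, Hist1h2ad and Hist1h2ah in 4, and all of these in all 5 CPEB3-/- libraries, so that these 4 genes were tested only because of their CPEB3-/- values. The count is therefore a description. Of the 8 members called, 6 share over 50% of their 150-base words with other genes, as do 12 of the 33 tested. Beside the H2A genes these are Hist1h2br (89.7%, mostly with Hist1h2bq) and Hist1h4n (77.2%, with Hist1h4m). Reads of such genes may not be told apart, so the 8 need not be separate differences. At an unadjusted p under 0.05, 10 members were higher and 1 was lower, against 18.3% and 18.8% of all genes.

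Hist1h2ad (chr13:23574381-23574952, plus strand) showed the largest difference. In CPEB3+/- MII oocytes its values were 0.628, 0.301, 0.366, 0.159 and 0 FPKM in libraries A to E, and in CPEB3-/- oocytes 12.6, 6.78, 16.6, 9.04 and 13.6 FPKM. Every CPEB3-/- library lay far above every CPEB3+/- library. The log2 fold change was 5.03 (SE 0.484, limma adjusted p = 0.00019). Hist1h2ap (chr13:21833026-21833507, minus strand) had 16.5, 10.7, 17.0, 16.7 and 22.5 FPKM in CPEB3+/- against 80.6, 51.4, 87.2, 49.3 and 57.5 FPKM in CPEB3-/- oocytes. These groups did not overlap either, and the log2 fold change was 1.86 (SE 0.214, limma adjusted p = 0.000511). With this rise Hist1h2ap moved from the 657th to the 216th highest mean of all genes.

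The H2A gene Hist1h2ah was at 1.8e-05, 1.61, 4.71, 1.35 and 0.962 FPKM in CPEB3+/- and at 11.7, 5.48, 9.21, 7.57 and 7.10 FPKM in CPEB3-/- oocytes. Its groups lay close at their edges, and its log2 fold change of 2.87 (SE 0.835, limma adjusted p = 0.0346) was lost when CPEB3+/- library D or E or any 1 of the 5 CPEB3-/- libraries was left out (adjusted p up to 0.0706). It was also lost with no filter on low values (adjusted p up to 0.0801 over the alternatives). Hist1h2ao, which shares most of its sequence with Hist1h2ap, was listed at 0, 0.788, 0, 0 and 0.271 FPKM in CPEB3+/- and at 0.644, 0.691, 1.53, 0.978 and 1.16 FPKM in CPEB3-/- oocytes, and the groups overlapped. Its log2 fold change was 2.36 (SE 0.595, limma adjusted p = 0.0203), and without CPEB3+/- library A, C or D it was not called (adjusted p up to 0.0527).

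Of the H4 genes, Hist1h4d (chr13:23581598-23582735, plus strand) shares no 150-base word with another gene. It was at 1.5, 0.798, 0.557, 0.897 and 0.898 FPKM in CPEB3+/- and at 4.23, 2.45, 4.75, 1.97 and 2.53 FPKM in CPEB3-/- MII oocytes. The groups did not overlap, and the log2 fold change was 1.56 (SE 0.27, limma adjusted p = 0.004). Hist1h4a was at 0.723, 1.53, 1.48, 2.73 and 3.10 FPKM against 5.70, 5.09, 6.62, 4.14 and 5.58 FPKM, again without overlap (log2 fold change 1.5, SE 0.306, limma adjusted p = 0.00871). Hist1h4n rose from 0.339 to 1.93 FPKM in CPEB3+/- to 1.59 to 4.24 FPKM in CPEB3-/- oocytes with overlap (log2 fold change 1.5, limma adjusted p = 0.0207), and it was not called without CPEB3-/- library B (adjusted p = 0.051), with no filter on low values or in 1 fit of all 19 libraries.

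Hist1h2br, the head-to-head partner of Hist1h2ap, was the only H2B gene called. It was at 0 to 0.107 FPKM in CPEB3+/- and 0.128 to 0.173 FPKM in CPEB3-/- MII oocytes, which is about 1.84 and 6.97 fragments per library on average, so that its value rests on few reads. Its log2 fold change of 0.82 (limma adjusted p = 0.0206) was lost without CPEB3+/- library C (adjusted p = 0.0544) and with a pseudocount of 1. The H2B partner of Hist1h2ah, Hist1h2bk, was at 6.78 to 12.5 FPKM in CPEB3+/- and 6.25 to 10.7 FPKM in CPEB3-/- oocytes (log2 fold change -0.14, limma adjusted p = 0.571). The partners of Hist1h2ad and Hist1h2ao, Hist1h2bf and Hist1h2bq, did not pass the filter in MII oocytes.

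The other 25 members tested had log2 fold changes between -0.60 and 1.16. The highest was that of the H3 gene Hist2h3c2, from 0.596 to 3.35 FPKM in CPEB3+/- to 2.07 to 6.71 FPKM in CPEB3-/- (limma adjusted p = 0.0615). Hist2h2aa1, the most abundant member of CPEB3+/- oocytes, was at 31.1, 45.2, 23.8, 28.2 and 48.8 against 86.6, 51.2, 68.0, 45.6 and 40.6 FPKM, with overlap (log2 fold change 0.62, SE 0.215, limma adjusted p = 0.0633). The variants Hist1h2aa (0.07) and Hist1h2ba (0.29) and the leading members Hist1h3f (0.43), Hist1h3g (0.06), Hist1h2bj (-0.11), Hist1h4c (0.13) and Hist1h4h (-0.51) were not called. The median log2 fold change was 0.48 over the 33 members and 0.01 over all genes. By type it was 0.72 for 11 H2A, -0.11 for 7 H2B, 0.58 for 6 H3 and 0.56 for 9 H4 genes. Groups did not overlap for 6 of 33 members (18.2%) and for 16.3% of all genes, a similar share.

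**Figure D2:**
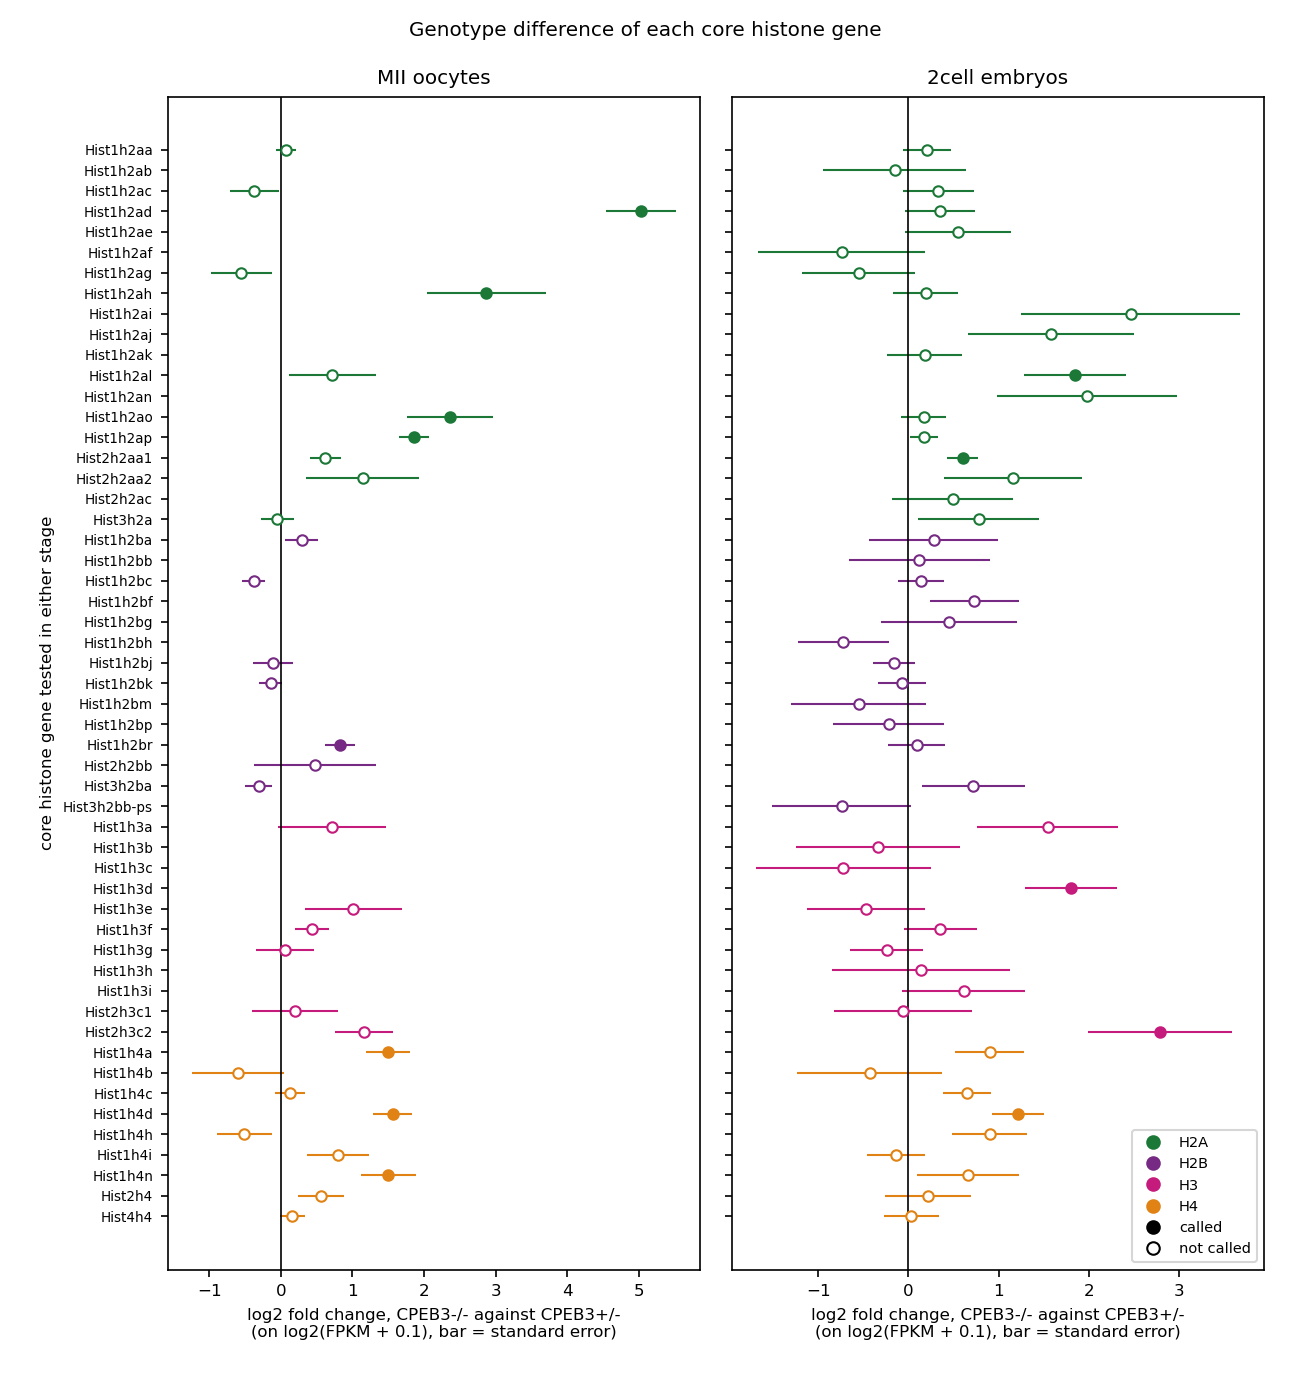
Log2 fold change of CPEB3-/- against CPEB3+/- libraries (x axis, on log2(FPKM + 0.1), bars are standard errors) for each core histone gene tested in MII oocytes (left) or 2cell embryos (right), with filled points for genes called. The 8 filled points on the left run from 0.82 (Hist1h2br) to 5.03 (Hist1h2ad), and the 5 on the right from 0.60 (Hist2h2aa1) to 2.78 (Hist2h3c2).

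Of the markers of 2cell embryos, the 3 Zscan4 genes (Zscan4c, Zscan4d, Zscan4f) were also higher in CPEB3-/- MII oocytes. The sum over the 9 marker genes in the table was 6.33 to 10.9 FPKM in CPEB3+/- and 15.3 to 29.3 FPKM in CPEB3-/- MII libraries, against 443 to 867 FPKM in CPEB3+/- 2cell libraries. The other 3 tested were not called by limma (Usp17lc 1.21, adjusted p = 0.0505, Tcstv3 0.08 and Gm8300 -0.06), and Zfp352, Tdpoz4 and Obox6 did not pass the filter, at 0.129 FPKM or less in every MII library. In the 2cell comparison 0 of the 9 markers were higher and 3 were lower in CPEB3-/- by limma (Zscan4d -1.03, Obox6 -1.66 and Gm8300 -0.75), with 1 higher (Usp17lc) and 4 lower at an unadjusted p under 0.05. The rise in MII oocytes was 27.8% of the mean CPEB3+/- 2cell level for Hist1h2ad, 18.2% for Hist1h2ah, 5.19% for Hist1h2ao, 4.73% for Hist1h2ap and 120% for Hist1h4d. For Zscan4d it was 8.37%, for Zscan4f 0.666%, and for the globin gene Hba-a1, which was at 63.7 FPKM in 2cell embryos, the difference was -0.0701%. The share thus differed by gene, and the part of these markers in the result was not tested.

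Between CPEB3-/- and CPEB3+/- 2cell embryos, 5 of 52 members tested were higher and none was lower: the H2A gene Hist2h2aa1, the H2A pseudogene Hist1h2al, the H3 genes Hist1h3d and Hist2h3c2, and the H4 gene Hist1h4d. Of the 14051 genes tested, 8.38% were higher and 9.87% lower, so the 9.62% of members called higher was near the share of all genes. No H2B gene was called among 13, or had an unadjusted p under 0.05 in either direction by limma. The H2B gene Hist2h2be, which did not pass the filter, was at 0, 0, 0.0221, 0.0193 and 0 FPKM in CPEB3+/- and at 0.544, 0.473, 0.0884 and 0.257 FPKM in CPEB3-/- embryos, without overlap, and was called higher with no filter and without CPEB3-/- library C. In the latter fit it passed the filter only through its CPEB3-/- values, so these calls are descriptions too. Over all types 7 members had an unadjusted p under 0.05 and were higher and 0 were lower, against 16.0% and 18.3% of all genes. Hist1h2al and Hist1h3d reached the filter (0.1 FPKM in 4 libraries) in 3 CPEB3+/- libraries and in all 4 CPEB3-/- ones, so that both were tested only because of their CPEB3-/- values, and their calls and the count are descriptions. Hist1h4d was the only member called in both stages, but Hist2h2aa1 and Hist2h3c2 were also called in both with a filter at 1 FPKM, and these and Hist1h4a with libraries scaled to their summed FPKM. In 1 fit of all 19 libraries Hist2h2aa1 was called in both as well.

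Hist1h4d was at 2.85, 1.88, 2.34, 1.25 and 1.04 FPKM in CPEB3+/- libraries A to E and at 4.49, 4.31, 4.99 and 3.78 FPKM in CPEB3-/- libraries A to D. The groups did not overlap, the log2 fold change was 1.21 (SE 0.285, limma adjusted p = 0.0168), and without 1 library the adjusted p rose to at most 0.0484. Hist2h2aa1 was at 53.4, 41.3, 51.9, 42.0 and 33.7 FPKM in CPEB3+/- and 61.0, 64.8, 84.4 and 68.7 FPKM in CPEB3-/- embryos. These did not overlap, with a log2 fold change of 0.60 (SE 0.172, limma adjusted p = 0.0356). With the trend of the values on GC content removed it was 0.01 (limma adjusted p = 0.981), and the value in MII oocytes was then 0.33. The 2cell call of Hist2h2aa1 was also lost without CPEB3+/- library B, D or E, without CPEB3-/- library B, C or D, and with no filter on low values.

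The H3 gene Hist2h3c2 (chr3:96238108-96239127, minus strand) was at 1.85, 0.269, 0.0106, 0.589 and 1.97 FPKM in CPEB3+/- and at 5.48, 4.86, 5.81 and 2.74 FPKM in CPEB3-/- embryos. Its log2 fold change was 2.78 (SE 0.796, limma adjusted p = 0.0354), the lowest CPEB3+/- value is under 0.5 of a fragment, and 59.4% of its 150-base words are shared with other genes. Without 1 library the value ran from 2.15 to 3.21, and the call was lost without CPEB3+/- library B or D or any 1 of the 4 CPEB3-/- libraries. Hist1h3d was at 0, 0.0527, 0.235, 0.143 and 0.283 against 1.09, 1.42, 0.392 and 0.290 FPKM, so that the lowest CPEB3-/- library only just passed the highest CPEB3+/- one (log2 fold change 1.80, SE 0.511, limma adjusted p = 0.0343). In MII oocytes it was listed at 0 in all 10 libraries. Its 2cell call was lost without CPEB3+/- library A, B or D or CPEB3-/- library A or B, with no filter on low values and with a filter at 1 FPKM. The pseudogene Hist1h2al was at 0 to 0.171 FPKM against 0.156 to 1.20 FPKM, or 0.596 and 4.38 fragments on average (log2 fold change 1.84, limma adjusted p = 0.0457).

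These calls were close to the threshold. The number of members called, newly called ones included, was 1 without CPEB3+/- library B or D, 2 without CPEB3-/- library B, 3 without CPEB3-/- library C or D, and 4 without CPEB3+/- library A or E or CPEB3-/- library A, and 5 without CPEB3+/- library C. With the GC trend removed, Hist2h2aa1 was thus at 0.01, Hist1h2al had a log2 fold change of 1.08 (limma adjusted p = 0.219) and Hist2h3c2 one of 2.32 (limma adjusted p = 0.0936), and only Hist1h3d and Hist1h4d were called. The median of the members was then -0.04. Of the 47 members not called, log2 fold changes lay between -0.74 and 2.46. The median was 0.22 over the members and -0.01 over all genes, and by type 0.35 for H2A, 0.09 for H2B, 0.14 for H3 and 0.65 for H4 genes. Groups did not overlap for 5 of 52 members (9.62%) and for 20.0% of all genes.

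The 4 H2A genes called in MII oocytes were not called in 2cell embryos. Hist1h2ap was at 745, 1090, 1260, 1170 and 857 FPKM in CPEB3+/- and at 1160, 1050, 1210 and 1310 FPKM in CPEB3-/- embryos (log2 fold change 0.17, limma adjusted p = 0.47). Hist1h2ad was at 34.4, 16.7, 65.7, 64.0 and 25.0 against 34.3, 54.0, 50.8 and 55.2 FPKM (0.35, adjusted p = 0.564). With the GC trend removed all 4 of these small differences turned, to -0.45 for Hist1h2ap (limma adjusted p = 0.0416, under 1.5-fold), -0.08 for Hist1h2ad, -0.54 for Hist1h2ah and -0.44 for Hist1h2ao. Whether a genotype difference changed between the stages was tested by an interaction in 1 fit of all 19 libraries. The interaction was called for Hist1h2ad (log2 -4.67, limma adjusted p = 0.000498) and Hist1h2ap (log2 -1.65, limma adjusted p = 0.00216), where the difference on the log2 scale was smaller in 2cell embryos, and both were called without any 1 library. It was also called for Hist1h3d (log2 1.77, limma adjusted p = 0.0394), but this gene was at 0 in every MII library, so that the value repeats the 2cell difference of 1.80 and compares it with no measured difference in MII oocytes. That call was lost when any 1 MII library, CPEB3+/- 2cell library B or D, or CPEB3-/- 2cell library A or B was left out (adjusted p up to 0.0815). Of all genes 3.67% were called in the upward and 4.01% in the downward direction, against 1 and 2 of 55 members. For Hist1h2ah (log2 -2.66, adjusted p = 0.124), Hist1h2ao (-2.22, adjusted p = 0.0685) and Hist1h4d (-0.31, adjusted p = 0.693) the interaction was not called by limma, which does not show that the stages were alike.

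**Figure D3:**
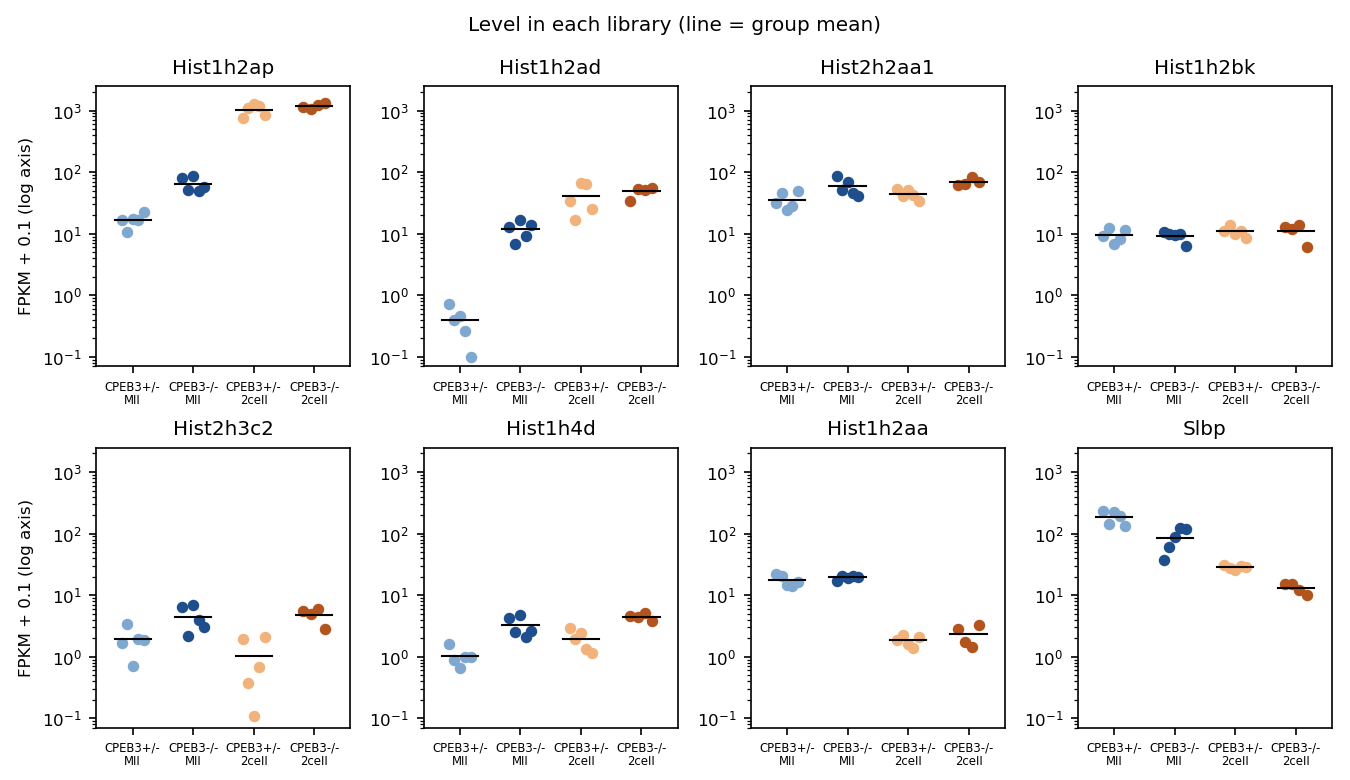
FPKM + 0.1 (log axis, the same in each panel) of 7 core histone genes and of Slbp in each library, with points for libraries and lines at group means. Hist1h2ap and Hist1h2ad are higher in all 5 CPEB3-/- than in all 5 CPEB3+/- MII libraries and overlap between genotypes in 2cell embryos, Hist1h4d is apart in both stages, and Slbp is lower in every CPEB3-/- library at each stage.

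Levels were also summed over each histone type. The summed level of the H2A genes in MII oocytes was 73.8 ± 12.4 FPKM in CPEB3+/- (n = 5) and 167 ± 38.3 FPKM in CPEB3-/- oocytes (n = 5), a ratio of 2.26, and the groups did not overlap (62.2 to 91.4 against 135 to 214 FPKM). H3 had a ratio of 1.94 and H4 of 1.58, with overlap, and H2B one of 1.04 (24.7 ± 6.21 against 25.8 ± 5.54 FPKM). The order rested on single genes, since without the highest member of each type (by the mean over all libraries) the ratios were 1.78 for H2A, 2.29 for H3, 1.86 for H4 and 1.09 for H2B. In 2cell embryos the ratios were 1.56 for H4, 1.47 for H3, 1.17 for H2A and 1.02 for H2B, and without the highest member 1.52 for H4, 1.57 for H3, 1.31 for H2A and 1.01 for H2B. There only the H4 sums did not overlap, at 27.1, 34.0, 32.2, 36.8 and 21.3 FPKM in CPEB3+/- against 41.0, 37.4, 65.4 and 45.7 FPKM in CPEB3-/- embryos. The H2B sum was thus the most alike between the genotypes in both stages, as a value without a test.

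Between clusters, Hist1 had a ratio of 2.04 in MII oocytes (78.9 ± 9.52 against 161 ± 27.6 FPKM, without overlap) and 1.16 in 2cell embryos. Hist2, of which Hist2h2aa1 made up 92.0% in CPEB3+/- MII oocytes, had 1.71 with overlap and then 1.64 without overlap. Hist3, with 3 genes, had 0.88 and 1.33, and the single Hist4 gene 1.18 and 1.06. Without Hist1h2ap the Hist1 ratio in MII oocytes was 1.54, and without Hist2h2aa1 the Hist2 ratio was 2.36, so that the order of the clusters turned. The 59 members together made up 0.141% of all FPKM in CPEB3+/- and 0.283% in CPEB3-/- MII oocytes, and 0.851% and 1.22% in 2cell embryos.

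**Figure D4:**
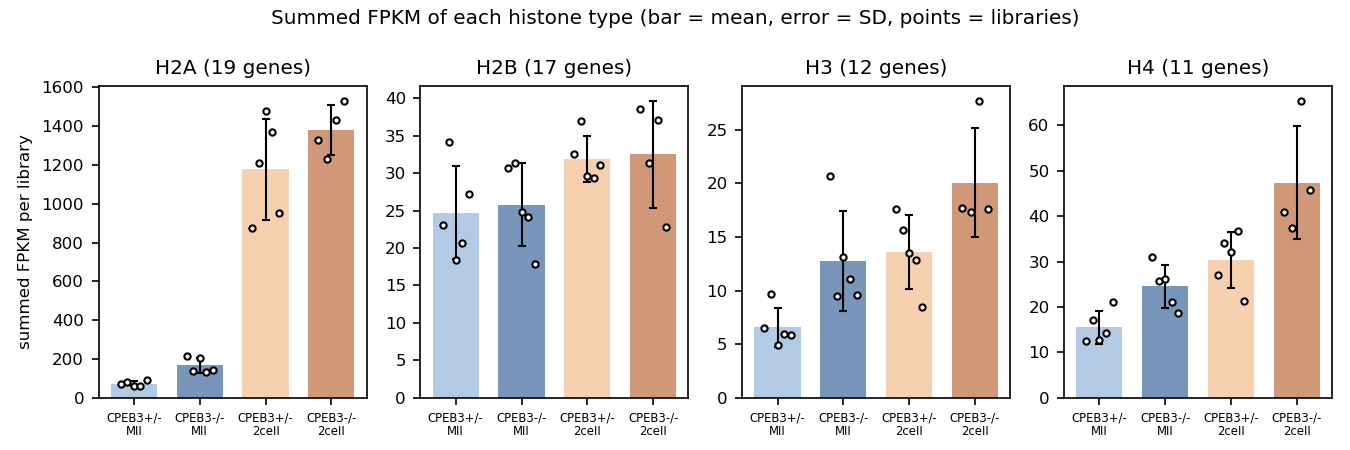
Summed FPKM of the genes of each histone type per library (bars are means, error bars SD, points libraries, each y axis from 0). For H2A the CPEB3-/- MII libraries (135 to 214) lie above the CPEB3+/- ones (62.2 to 91.4), and for H2B the genotypes overlap in both stages.

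From MII oocytes to 2cell embryos most called members rose. In CPEB3+/-, 28 of 55 members tested were higher and 4 were lower at the 2cell stage, against 38.3% and 28.1% of the 15786 genes tested. Of the 28, 6 were at 0 in every CPEB3+/- MII library, and 3 of these (Hist1h2af, Hist1h3d and Hist1h3i) were not above 1.5-fold at the level of 3 fragments per library. The other 22 were above 0 in at least 1 of these libraries. Several of them averaged under 1 fragment there, as Hist1h2aj (0.0451) and Hist1h2bm (0.198), so that their MII level is hardly measured. With libraries scaled to their summed FPKM the split was 23 higher and 7 lower. In CPEB3-/-, 22 were higher and 3 lower, against 38.5% and 26.7% of all genes. Of these 22, 17 were above 0 in at least 1 CPEB3-/- MII library, some again under 1 fragment on average, as Hist1h2ak (0.2). In both genotypes 20 members were called higher, of which 11 were H2A, 3 H2B, 4 H3 and 2 H4 genes, and 3 were called lower. These 20 include Hist1h3b, Hist1h3d and Hist1h3i, which were at 0 in every MII library. They also include Hist1h2ab, Hist1h2ae, Hist1h2aj and Hist1h2ak, which were at 0 in every MII library of a single genotype. Of all genes 32.7% were called higher and 23.1% lower in both genotypes, so that the 36.4% of members called higher was near the share of all genes. The median log2 change of the members was 0.95 in CPEB3+/- and 0.97 in CPEB3-/-, against 0.21 and 0.23 for all genes. Of the members tested, 8 and 7 were at 0 in every MII library of the genotype and have no measurable fold. With 6 and 4 of them set at the bound that 3 fragments per library allow, and the others, whose 2cell mean lay below that level, left out, the medians were 0.78 and 0.84.

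Of the 19 H2A genes, 12 were called higher and 1 (Hist1h2aa) lower at the 2cell stage in each genotype, and Hist2h2aa1 (log2 0.14 in CPEB3+/-), Hist1h2ac (-0.17) and Hist1h2al (-0.23) were among those not called. The types were not tested against each other. Of the 4 H2A genes that differed by genotype in MII oocytes, Hist1h2ap changed by limma by 5.73 on the log2 scale in CPEB3+/- and by 4.08 in CPEB3-/-, a ratio of means of 61.5 and 18.1. Hist1h2ad changed by 6.62 and 1.95, Hist1h2ao by 6.08 and 3.86 and Hist1h2ah by 4.74 and 2.08. In CPEB3-/- the change of Hist1h2ah was not called with the GC trend removed (log2 0.93, limma adjusted p = 0.263) or with libraries scaled to their summed FPKM (log2 1.65). Both contrasts start from the MII levels given above, which differed between the genotypes. Of the H4 genes, Hist1h4i was at 0.0581 to 0.471 FPKM in CPEB3+/- MII oocytes and 2.46 to 8.22 FPKM in 2cell embryos (log2 4.29 in CPEB3+/-, 3.37 in CPEB3-/-). Of the H2B genes, Hist1h2bj was at 2.42 to 5.56 and then 10.2 to 19.6 FPKM (log2 1.60 and 1.59). Hist1h2bk, the leading H2B gene in MII oocytes, had changes of -0.03 and 0.08 and was not called.

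Both oocyte variants fell. Hist1h2aa was at 22.2, 20.1, 14.6, 13.8 and 16.2 FPKM in CPEB3+/- MII oocytes and at 1.80, 2.14, 1.49, 1.30 and 2.03 FPKM in 2cell embryos (log2 -3.46, SE 0.211, limma adjusted p = 4.28e-11), and the change in CPEB3-/- was -3.27. Hist1h2ba, 306 bases away head to head, had changes of -2.16 and -2.13. Hist1h2bc had changes of -2.79 and -2.23. These were the 3 members called lower in both genotypes, and their ranges at the 2 stages did not overlap in either. Hist2h3c2 was lower at the 2cell stage in CPEB3+/- (log2 -1.58, limma adjusted p = 0.0283) and had a change of 0.05 in CPEB3-/-, but the interaction (1.64, adjusted p = 0.296) was not called. In CPEB3+/- its call was lost with values as deposited, with a pseudocount of 1, and without MII library B or 2cell library B or C (log2 from -1.99 to -0.95 without 1 library, limma adjusted p up to 0.0951).

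**Figure D5:**
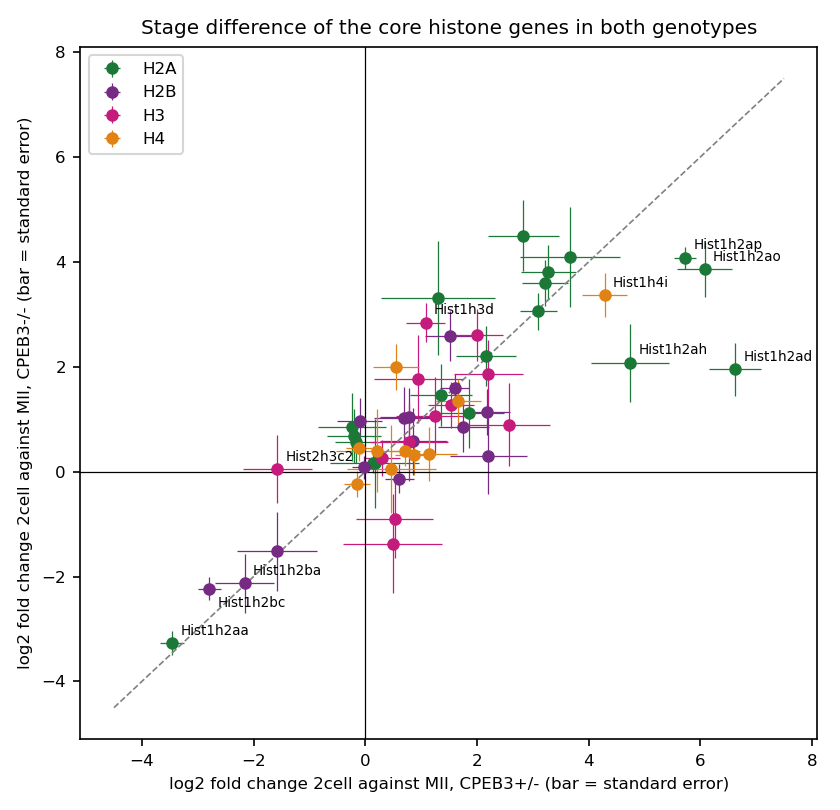
Log2 fold change of 2cell embryos against MII oocytes in CPEB3+/- (x axis) and CPEB3-/- (y axis) for the 55 core histone genes tested, with standard errors and the line of equality. Hist1h2ad (6.62 and 1.95) lies farthest below the line, and Hist1h2aa (-3.46 and -3.27) is at the lower left near it.

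The factors that make and stabilise histone mRNA were examined as a list of 25 names, 23 of which were in the table. In MII oocytes 2 of 21 tested were higher and 3 lower in CPEB3-/-, and in 2cell embryos 0 were higher and 5 of 21 lower, with a median log2 fold change of -0.06 and -0.22. The shares of all genes were 5.61% and 7.28% in MII oocytes and 8.38% and 9.87% in 2cell embryos. At an unadjusted p under 0.05 by limma, 6 were higher and 5 lower in MII oocytes, and 2 (Hinfp and Srrt) were higher and 6 lower in 2cell embryos. At that threshold the shares of all genes were 18.3% and 18.8% in MII oocytes and 16.0% and 18.3% in 2cell embryos. Slbp, which encodes the stem-loop binding protein, was lower in both stages. It was at 230, 145, 226, 190 and 131 FPKM in CPEB3+/- and at 37.4, 61.3, 87.0, 122 and 118 FPKM in CPEB3-/- MII oocytes, without overlap (log2 fold change -1.30, limma adjusted p = 0.0264). In 2cell embryos it was at 30.8, 27.5, 25.7, 29.6 and 28.7 against 14.9, 15.3, 12.1 and 9.85 FPKM (log2 fold change -1.20, limma adjusted p = 0.00164). Casp8ap2 (FLASH, a processing factor) was also lower in both (-0.62 and -0.75).

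Of the others called in MII oocytes, Snrpd3, a core protein of small nuclear ribonucleoproteins, was lower (-1.04), and Upf1, an RNA helicase of histone mRNA decay (0.73), and Coil, which encodes coilin (0.79), were higher. In 2cell embryos Npat, the coactivator of histone gene transcription (-1.10, limma adjusted p = 0.00144), Eri1, an exonuclease that trims histone mRNA ends (-0.68), and Ncbp2, a cap-binding protein (-0.83), were lower. Of 6 genes of dividing cells, 0 were called in MII oocytes by limma, Mcm5, a replication licensing gene, staying under 1.5-fold (log2 0.51, adjusted p = 0.0199), and Mki67 and Rrm2 were lower in CPEB3-/- 2cell embryos (-0.73 and -0.70), where Mcm5 had a log2 fold change of 0.85 (limma adjusted p = 0.0613). The part of any of these factors in the histone values was not tested.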

How the data were processed

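RNA-seq values of 19 libraries were used in the groups given by the labels. Per the methods and labels, the authors made libraries with a SMART-seq v4 kit from pools of 5 cells in 4 replicates (the labels list 5, 5, 5 and 4), sequenced 150 bp paired reads, trimmed them with Trim Galore 0.4.1, mapped them to GRCm38 with HISAT2 2.0.5 and quantified them in SeqMonk. The deposited values are FPKM, although the table is named as raw counts, so no count model was used. Handling of strand and of reads with several positions is not given in the sources used here. Depth, estimated from the steps of low values, was 17.05 M to 23.5 M fragments per library (M, mega). Fragment numbers derived from it cover counting error only.

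Values under 1e-06 FPKM were set to 0. A trimmed mean of log ratios (30% and 5% trimmed) set the scale of each library, and log2(FPKM + 0.1) was tested with limma 3.58.1 (trend) in R 4.3.3. The pseudocount shrinks fold changes of low genes, and as differences of mean logs these can lie above or below ratios of means. Genes needed 0.1 FPKM in 5 MII libraries, 4 2cell libraries, or 4 of all 19 for the stage and interaction contrasts. P-values were adjusted by Benjamini-Hochberg over all genes tested, and calls needed an adjusted p under 0.05 and over 1.5-fold. Members failing the filter were 26 in MII oocytes and 7 in 2cell embryos. Of these, Hist1h2be, Hist1h2bq, Hist2h2be, Hist2h3b, Hist1h4j and Hist1h4m failed it in both. Scripts were tested on simulated data. Members called in a genotype comparison, the 3 highest of each type and those with an interaction are named with values. Stage changes named beside them were chosen after their values were seen. Members and gene lists were chosen with earlier results of these data known. Alternatives covered scaling, pseudocount, filter, GC content, a replicate block and leaving out each library.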

Additional observations from a re-analysis of the deposited data

Results flagged for a closer look

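Among 108 groups of 4 or 5 libraries examined for named members and sums, 4 held a library set apart from the others by Dixon's criterion, and chance alone marks about 1 in 20 groups. Hist1h2bk was at 6.25 FPKM in CPEB3-/- MII library E, against 9.41 to 10.7 FPKM in the other 4. Hist1h2ba was at 8.85 FPKM in CPEB3+/- MII library B, against 3.96 to 5.05 FPKM. Hist1h3g was at 7.96 FPKM in CPEB3+/- 2cell library B, against 2.52 to 3.85 FPKM. The summed H3 level was 27.7 FPKM in CPEB3-/- 2cell library C, against 17.3 to 17.7 FPKM in the other 3, and without that library the H3 ratio of CPEB3-/- to CPEB3+/- embryos fell from 1.47 to 1.29.

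The interaction of genotype and stage was called by limma for 3 members. On the log2 scale the genotype difference was smaller in 2cell embryos by 4.67 (log2 interaction -4.67) for Hist1h2ad and by 1.65 (-1.65) for Hist1h2ap, both H2A genes. In FPKM it was not smaller for Hist1h2ap, with means of 16.7 and 65.2 in MII oocytes and 1026 and 1183 in 2cell embryos (CPEB3+/- and CPEB3-/-). For the H3 gene Hist1h3d the interaction was 1.77, but the gene was at 0 in all 10 MII libraries, so that no difference in MII oocytes was measured, and the call was made in 5 of the 19 fits that left out 1 library. No explanation was tested.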

How the results depend on the processing

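Among the 8 members higher in CPEB3-/- MII oocytes, Hist1h2ad, Hist1h2ap, Hist1h4a and Hist1h4d were called under all 8 alternatives and without any 1 library, the whole count ran from 6 to 10 under the alternatives and from 6 to 9 without 1 library, and the count lower from 0 to 1 (Hist1h4h, without CPEB3+/- library A). In 2cell embryos, where 5 members were higher, 2 were with no filter on low values (Hist1h4d, the 1 of the 5 still called, and the H2B gene Hist2h2be), 7 with libraries scaled to their summed FPKM (with Hist1h4a and Hist1h4c added), 2 with the GC content trend removed, 0 with a replicate block (Hist1h4d at an adjusted p of 0.0616 by limma), and 1 to 5 without 1 library. The replicate letters shared by the groups did not pair the libraries: between genotypes same-letter deviations correlated at -0.338 to 0.171, and 2 of 9 libraries correlated best with their own letter. With this block 6 members were called in MII oocytes, Hist1h2ah and Hist1h2ao being lost, and no member was called in both stages. In CPEB3+/- the 28 members higher at the 2cell stage became 17 with a filter at 1 FPKM and 24 to 27 without 1 library, and the 4 lower became 7 with libraries scaled to their summed FPKM and 3 to 5 without 1 library. In CPEB3-/- the 3 lower became 6 and the change of Hist2h2aa1 turned to -0.69 with the GC trend removed, and without 1 library 21 to 24 were higher and 3 to 4 lower. The 1 upward interaction became 0 with a pseudocount of 1, with a filter at 1 FPKM and with the block, and 0 to 1 without 1 library, and the 2 downward ones 2 to 3. Without its highest member, the Hist1 sum had a ratio of 1.54 in MII oocytes and the Hist2 sum one of 2.36 in MII oocytes and 2.45 in 2cell embryos. Scaling to the summed FPKM moved the median of all genes to 0.15 in the MII and 0.26 in the 2cell comparison, and to -0.17 between the stages in CPEB3+/-, and the medians of the members to 0.60, 0.55 and 0.62. The cause of these shifts was not tested, apart from fewer genes tested under the stricter filter. At this depth 3 fragments correspond to 0.0342 FPKM for Hist1h2be and to 0.448 FPKM for Hist1h2al, and differences below such levels were not detectable.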
